A study of Danio rerio with 6 samples.

Results

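Hox genes encode homeodomain transcription factors that give cells their position along the body axis and along limbs and fins. They lie in clusters, and genes at the same place in different clusters form a paralog group, numbered from the group active nearest the head to the group active nearest the tail and the tip of an appendage. Zebrafish carry extra clusters from a genome duplication in the ancestors of teleost fish, so that many of their Hox genes exist as an a and a b copy. In the mouse limb bud, late genes of the HoxD cluster and Sonic hedgehog act on each other, and zebrafish hox13 genes are needed for the bony rays of paired fins.

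The Hox genes were taken as every row of the deposited count table whose name starts with hox, a cluster letter from a to d and a number. This gave 48 genes out of 31901 rows, none of which shared its name with another row. They belong to 7 clusters and to paralog groups 1 to 13. Of the 48, 32 passed the filter on low counts and were tested, and the other 16 reached at most 15 counts in any library. The clusters are named by letter and copy, so that hoxaa holds hoxa1a to hoxa13a and hoxab holds hoxa2b to hoxa13b.

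The libraries came from caudal fin regenerates of shha:GFP zebrafish, a reporter line whose fluorescence marks the domains of the Sonic hedgehog gene shha and which all fish of both groups carry. At 4 days after amputation the BMS fish were injected into the body cavity with BMS-833923, an inhibitor of the Hedgehog signal transducer Smoothened, at 40 mg/kg in a buffer of PEG-400, propylene glycol and Tween-80. The vehicle fish received the same volume of that buffer alone, and fins were taken 5 hours later. Each group has 3 libraries, numbered 2, 3 and 4, each from 4 pooled fin regenerates cut to the shha:GFP domains and the tissue beyond them, and no age of the fish was stated. The compound number in the labels differs in its last digit between the 3 BMS libraries; they were taken as 1 treatment because the design text names BMS-833923 alone.

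Total counts were 16978747 to 22659275 in the BMS libraries and 21491345 to 22594355 in the vehicle libraries. BMS replicate 2 had the lowest total and the lowest TMM factor (0.779, against 0.954 to 1.12 in the other libraries). Levels are given as CPM, counts divided by the TMM-scaled library size and set to a common total. The labels name pools and not separate fish, so a p-value reflects how far one pool differed from another, which may be technical. As a check of the treatment, the Hedgehog antagonist gene hhip, a direct target of the pathway, was at 1.97, 3.99 and 4.16 CPM in BMS replicates 2, 3 and 4, against 15.1, 13.1 and 9.40 CPM in vehicle replicates 2, 3 and 4. Its groups did not overlap (edgeR log2 fold change -1.88, adjusted p = 1, and 0.342 with the block), and DESeq2 with the replicate block called it (adjusted p = 0.000112). The target gene gli1 did not overlap between groups either (edgeR log2 fold change -0.90, adjusted p = 1, and 0.454 with the block; DESeq2 with the block, adjusted p = 0.0245). The groups of ptch1 overlapped, and neither tool called it (edgeR log2 fold change -0.82, adjusted p = 1, and 0.477 with the block; DESeq2 with the block, adjusted p = 0.0542). Markers of fin mesenchyme, osteoblasts and epidermis were present in every library, with no member of those lists at 0 in all of them.

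Hox genes together took between 0.0534% and 0.0816% of the reads of a library. Their summed level was 686, 561 and 747 CPM in BMS replicates 2, 3 and 4, against 614, 625 and 700 CPM in vehicle replicates 2, 3 and 4. Those are means of 665 ± 95.1 CPM in BMS and 646 ± 46.8 CPM in vehicle (SD, n = 3 libraries each). The groups overlapped, and of the 3 same-number pairs 1 had its smaller sum in BMS. In bulk tissue, fewer cells that express a gene and less RNA per cell cannot be told apart. Shares below are shares of Hox reads and are not corrected for transcript length, so they say where the reads fell and do not rank the genes by transcript number.

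The reads came mostly from the late genes of the clusters. Paralog groups 9 to 13, the posterior groups, gave 93.5%, 87.9% and 90.6% of Hox reads in BMS replicates 2, 3 and 4, against 91.5%, 88.9% and 89.8% in vehicle replicates 2, 3 and 4. Group 13 alone gave 62.6% ± 5.53 in BMS and 61.3% ± 3.13 in vehicle. All 23 genes of groups 9 to 13 were tested, against 9 of the 25 genes of groups 1 to 8. Groups 9, 10 and 11 lay near each other, with 7.43%, 7.55% and 7.54% of Hox reads on average in BMS and 7.36%, 7.21% and 7.71% in vehicle. Group 12, which has only 3 members here, gave 5.53% ± 2.17 in BMS and 6.48% ± 1.36 in vehicle. By library this was 3.04%, 7.00% and 6.54% in BMS replicates 2, 3 and 4, against 4.92%, 7.27% and 7.26% in vehicle replicates 2, 3 and 4. The BMS share of group 12 was the smaller in 3 of 3 pairs, the groups overlapped, and the difference was not tested.

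**Figure D1:**
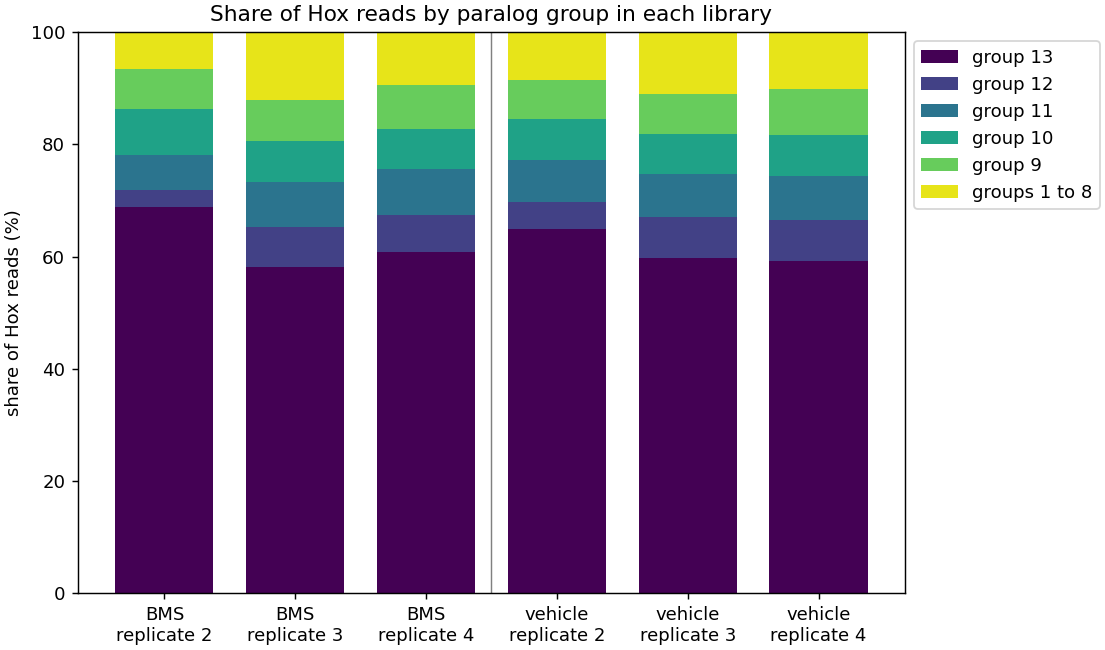
Share of Hox reads by paralog group (percent, y axis) in each of the 3 BMS libraries on the left and the 3 vehicle libraries on the right, with groups 1 to 8 combined. Group 13 holds 58.2% to 68.8% of Hox reads in the BMS libraries and 59.3% to 64.9% in the vehicle libraries.

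By cluster, hoxab gave the most reads, with 34.1% ± 2.63 of Hox reads in BMS and 30.5% ± 1.39 in vehicle. It was followed by hoxaa, with 23.8% ± 1.38 in BMS and 26.1% ± 1.12 in vehicle. The hoxca cluster gave 23.04% ± 5.11 in BMS and 23.6% ± 3.60 in vehicle, so that hoxaa and hoxca did not differ beyond their spread in either group. The hoxcb cluster gave 15.1% ± 1.93 in BMS and 15.6% ± 1.72 in vehicle. The remaining clusters gave few reads: hoxba 2.299% in BMS and 2.43% in vehicle, hoxda 1.59% in BMS and 1.73% in vehicle, and hoxbb at most 0.0238% in any library. HoxA and HoxC genes of both copies therefore made up nearly all Hox reads of the distal regenerate.

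**Figure D2:**
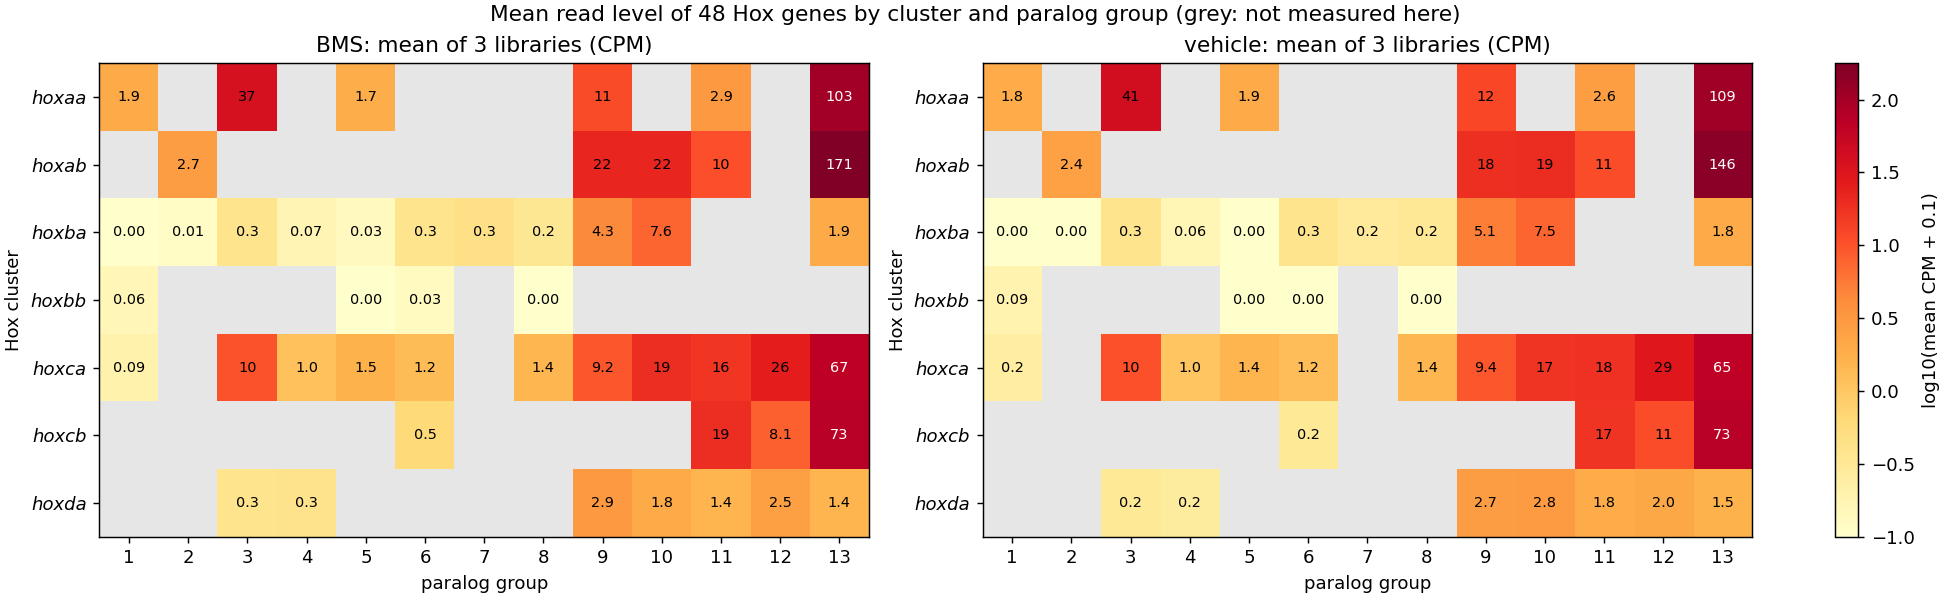
Mean level of each of the 48 Hox genes (CPM in each cell, colour on a log10 scale) by paralog group (x axis) and cluster (y axis), with the mean of the 3 BMS libraries on the left and of the 3 vehicle libraries on the right. The HoxA and HoxC genes of group 13 are the darkest cells in both groups, while most of hoxba and all of hoxbb are near 0.

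The group 13 genes of the HoxA and HoxC clusters stood above 50 CPM in every library, and no other Hox gene did. In zebrafish the hoxa13 genes act in the formation of the distal fin skeleton. The level of hoxa13b was 188, 132 and 193 CPM in BMS replicates 2, 3 and 4, against 148, 133 and 157 CPM in vehicle replicates 2, 3 and 4. BMS replicate 3 was the lowest of the 6 libraries and the groups overlapped (edgeR log2 fold change 0.22 ± 0.28 SE, 95% interval -0.39 to 0.84). Its copy hoxa13a was at 132, 75.4 and 103 CPM in BMS replicates 2, 3 and 4, against 118, 102 and 107 CPM in vehicle replicates 2, 3 and 4. The BMS libraries here held both the highest and the lowest value (log2 fold change -0.08, interval -0.72 to 0.57).

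The group 13 genes of HoxC are known in the mouse for the role of Hoxc13 in hair and nails. In the fin regenerate hoxc13b was at 88.7, 63.8 and 65.9 CPM in BMS replicates 2, 3 and 4, against 75.9, 76.7 and 65.2 CPM in vehicle replicates 2, 3 and 4. The means were almost equal, at 72.8 ± 13.8 CPM in BMS and 72.6 ± 6.39 CPM in vehicle (log2 fold change 0.00, interval -0.59 to 0.60). The level of hoxc13a was 60.2, 51.9 and 90.1 CPM in BMS replicates 2, 3 and 4, against 53.7, 57.8 and 82.1 CPM in vehicle replicates 2, 3 and 4. In both groups replicate 4 was the highest library for hoxc13a, and the groups overlapped (log2 fold change 0.06, interval -0.63 to 0.76).

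The other group 13 genes were low. The level of hoxd13a, whose mouse counterpart patterns the digits, was 1.29, 0.999 and 2.02 CPM in BMS replicates 2, 3 and 4, against 1.56, 1.01 and 2.06 CPM in vehicle replicates 2, 3 and 4. These are 17 to 50 counts in BMS and 24 to 52 counts in vehicle, so the interval was wide (log2 fold change -0.10, -1.06 to 0.86). For hoxb13a, whose mouse counterpart acts in the tail, the level was 1.89, 2.38 and 1.45 CPM in BMS replicates 2, 3 and 4, against 2.05, 1.73 and 1.67 CPM in vehicle replicates 2, 3 and 4. The groups overlapped for both genes, and the log2 fold change of hoxb13a was 0.07 (interval -0.72 to 0.86).

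In group 12, the level of hoxc12a was 10.8, 30.2 and 36.0 CPM in BMS replicates 2, 3 and 4, against 18.1, 32.8 and 37.2 CPM in vehicle replicates 2, 3 and 4. Replicate 2 was far below replicates 3 and 4 in both groups. The pair differences of hoxc12a, BMS minus vehicle, were -0.73, -0.12 and -0.05 log2 units in pairs 2, 3 and 4, so most of its difference came from pair 2 (edgeR log2 fold change -0.19, interval -1.18 to 0.80). Its copy hoxc12b was at 6.66, 7.32 and 10.5 CPM in BMS replicates 2, 3 and 4, against 10.1, 10.6 and 11.6 CPM in vehicle replicates 2, 3 and 4. Its pair differences were also all negative (-0.58, -0.52 and -0.14 log2 units), and only BMS replicate 4 reached into the vehicle range. The test was not passed (edgeR log2 fold change -0.39 ± 0.29, unadjusted p = 0.201, adjusted p = 1).

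The HoxD member of group 12, hoxd12a, went the other way in its means. It was at 3.41, 1.71 and 2.47 CPM in BMS replicates 2, 3 and 4, against 2.098, 1.98 and 2.06 CPM in vehicle replicates 2, 3 and 4. The vehicle libraries lay within the range of the BMS libraries. Its log2 fold change was 0.29 (interval -0.51 to 1.09), the highest of the 32 genes in that fit. This rests on single libraries and on the scaling, since hoxd12a was at 0.05 without BMS replicate 2, at 0.51 without BMS replicate 3 and at 0.15 with total-count scaling.

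Group 11 genes take part in patterning the middle segment of the mouse limb. The level of hoxc11a was 10.3, 16.98 and 22.2 CPM in BMS replicates 2, 3 and 4, against 14.1, 18.1 and 21.4 CPM in vehicle replicates 2, 3 and 4. Its copy hoxc11b was at 20.5, 14.5 and 21.2 CPM in BMS replicates 2, 3 and 4, against 15.96, 16.2 and 18.4 CPM in vehicle replicates 2, 3 and 4. Replicate 2 was the lowest library for hoxc11a in both groups, and this was not so for hoxc11b. The level of hoxa11b was 9.08, 9.22 and 12.9 CPM in BMS replicates 2, 3 and 4, against 11.9, 10.0 and 10.3 CPM in vehicle replicates 2, 3 and 4. For hoxa11a the level was 1.97, 3.57 and 3.27 CPM in BMS replicates 2, 3 and 4, against 2.05, 2.45 and 3.21 CPM in vehicle replicates 2, 3 and 4. The groups overlapped for each of these group 11 genes. Their log2 fold changes were -0.11 for hoxc11a (interval -0.86 to 0.64), 0.15 for hoxc11b (-0.46 to 0.76), -0.05 for hoxa11b (-0.67 to 0.58) and 0.20 for hoxa11a (-0.60 to 1.003).

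The remaining group 11 gene, hoxd11a, was at 0.908, 1.43 and 1.94 CPM in BMS replicates 2, 3 and 4, against 1.76, 1.86 and 1.83 CPM in vehicle replicates 2, 3 and 4. The vehicle libraries were close together and BMS replicate 4 lay above them. The log2 fold change of hoxd11a was -0.32 (interval -1.17 to 0.53). It was -0.08 without BMS replicate 2 and -0.62 without BMS replicate 4.

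The lowest log2 fold change among the Hox genes was that of hoxd10a, the hoxda gene with the highest mean read level in vehicle. It was at 1.89, 1.14 and 2.42 CPM in BMS replicates 2, 3 and 4, against 2.20, 2.41 and 3.81 CPM in vehicle replicates 2, 3 and 4. BMS replicate 4 fell between the lowest vehicle libraries and the highest. Its pair differences were -0.19, -0.93 and -0.60 log2 units in pairs 2, 3 and 4. Its edgeR log2 fold change was -0.62 ± 0.40 (unadjusted p = 0.153). It was -0.37 without BMS replicate 3, -0.34 without vehicle replicate 4 and -0.91 without BMS replicate 4. With the replicate block it was -0.65, with an interval of -1.29 to -0.01, and edgeR's adjusted p was 0.687 (unadjusted p = 0.0476). It was the only one of the 32 Hox genes at an unadjusted p under 0.05 in that fit, which is 3.12% of them, against 7.05% of all rows tested.

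Among groups 9 and 10, the log2 fold change of hoxa9b was 0.26 (interval -0.37 to 0.90). It was 0.15 without BMS replicate 2, 0.17 without vehicle replicate 3 and 0.43 without BMS replicate 3. It was at 26.1, 16.7 and 23.5 CPM in BMS replicates 2, 3 and 4, against 17.8, 15.9 and 21.5 CPM in vehicle replicates 2, 3 and 4. Its pair differences were 0.55, 0.07 and 0.13 log2 units, and the groups overlapped. The HoxB gene with the most reads was hoxb10a, at 9.31, 7.42 and 5.98 CPM in BMS replicates 2, 3 and 4, against 9.37, 7.38 and 5.79 CPM in vehicle replicates 2, 3 and 4. Its BMS and vehicle values of the same number differed by -0.01, 0.01 and 0.04 log2 units in pairs 2, 3 and 4 (log2 fold change 0.01, interval -0.69 to 0.70). The other genes of groups 9 and 10 (hoxa9a, hoxb9a, hoxc9a, hoxd9a, hoxa10b and hoxc10a) had log2 fold changes between -0.25 for hoxb9a and 0.17 for hoxc10a.

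**Figure D3:**
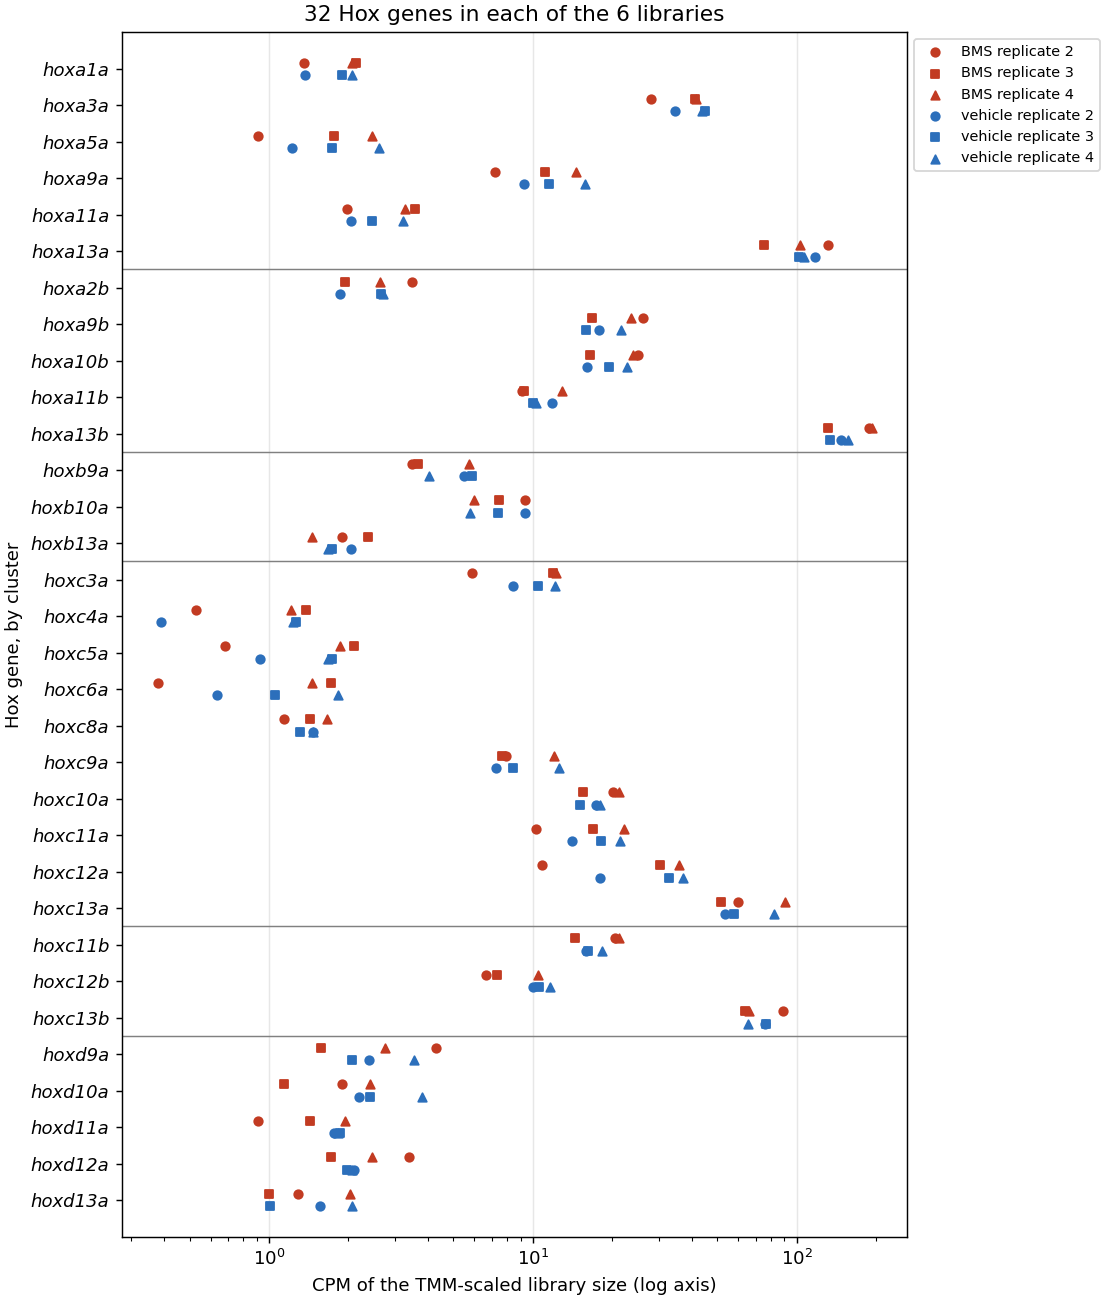
Level of the 32 tested Hox genes (y axis, by cluster) in each library (x axis, CPM on a log scale), with BMS libraries in red above vehicle libraries in blue and a marker shape for each replicate number. For every gene the red and blue points overlap in range, and for hoxc12a, hoxc4a and hoxa3a the circles of replicate 2 lie to the left in both colours.

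In groups 1 to 8, the reads lay mostly on hoxa3a and hoxc3a. The mouse counterpart of hoxa3a acts in the pharyngeal arches. The level of hoxa3a was 28.1, 41.1 and 41.7 CPM in BMS replicates 2, 3 and 4, against 34.7, 45.1 and 43.8 CPM in vehicle replicates 2, 3 and 4. Its pair differences were -0.30, -0.13 and -0.07 log2 units, with overlapping groups (log2 fold change -0.16, interval -0.77 to 0.46). The level of hoxc3a was 5.90, 11.9 and 12.2 CPM in BMS replicates 2, 3 and 4, against 8.39, 10.4 and 12.1 CPM in vehicle replicates 2, 3 and 4 (log2 fold change -0.03, interval -0.79 to 0.73).

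Both levels carry a doubt about the gene they belong to. In the RefSeq annotation of the later GRCz12tu assembly the span of hoxa3a overlaps those of evx1, hoxa4a and hoxa5a. The span of evx1 overlaps each hoxaa gene measured here, and the count table held no row named hoxa4a. The span of hoxc3a overlaps those of hoxc4a, hoxc5a, hoxc6a, hoxc8a and hoxc9a. How the authors' counting treated reads in such overlaps is not known from the labels. In that annotation 19 of the 32 tested Hox genes overlap another gene, and close copies can share reads as well. Among the 19 are hoxa13a, which overlaps evx1, hoxa13b, which overlaps LOC101886298, and hoxc13b, which overlaps calcoco1b. The levels of these group 13 genes therefore carry a like doubt. The other tested genes of these groups (hoxa1a, hoxa2b, hoxa5a, hoxc4a, hoxc5a, hoxc6a and hoxc8a) had group means between 0.962 and 2.69 CPM.

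The 16 untested genes include 12 of the 15 HoxB genes, among them hoxb1a, hoxb5b and hoxb8b with 0 counts in every library. The limit set by a count of 0 (3 counts, counting error only) was 0.121 to 0.227 CPM across BMS libraries and 0.119 to 0.146 CPM across vehicle libraries. The hoxbb gene with the highest vehicle mean, hoxb1b, had 0 to 2 counts in the BMS libraries and 0 to 3 counts in the vehicle libraries. Its levels lie at or under the limit that a count of 0 allows. HoxD genes of groups 3 and 4 were also untested, with at most 10 counts in a library. The filter left a gap, in that the lowest tested gene averaged 1.001 CPM over all libraries and the highest untested gene 0.352 CPM.

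None of the 32 tested genes passed the test between BMS and vehicle. edgeR's quasi-likelihood test called 0 of the 32 at an adjusted p under 0.05, as it did 0% of the 18541 rows tested. None of the 32 reached an unadjusted p under 0.05 (1.07% of all rows did), and the smallest unadjusted p was 0.153. DESeq2 without the block called 0 of the 32 (0.00539% of all rows) and limma-voom 0, with 0 of the 32 at an unadjusted p under 0.05 in each, against 1.16% of all rows in DESeq2 and 1.03% in limma-voom. DESeq2 with the replicate block called 0 of the 32 and had 0 at an unadjusted p under 0.05, where 0.388% and 5.26% of all rows were called and reached it. That fit gave no adjusted p for hoxa1a, hoxa5a, hoxb13a, hoxc4a, hoxc5a, hoxc6a, hoxc8a, hoxd11a and hoxd13a, so these could not be called there. The share of all rows called also counts rows without an adjusted p. The groups did not overlap for 0 of the 32 in either direction, where this held for 1.76% of all rows with BMS below vehicle and for 2.16% with BMS above.

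The direction of the fold changes was split. Without the block 14 of the 32 genes had a negative log2 fold change, or 43.8%, against 48.5% of all rows, and the median was 0.01, against 0.01 over all rows. With the block 17 of the 32 were negative, or 53.1%, against 52.2%. With total-count scaling, which moved the median of all rows to -0.10, the count was 23 of 32 and the median -0.09. Without vehicle replicate 4 the count was 9 of 32 and the median 0.18, against a median of 0.02 over all rows. Genes lower in BMS in 3 of 3 pairs numbered 6 of 32 (18.8%, against 17.5% of all rows), and genes higher in 3 of 3 pairs numbered 2 of 32 (6.25%, against 14.1%). The 6 were hoxa3a, hoxa9a, hoxc12a, hoxc12b, hoxd10a and hoxd13a, and the 2 were hoxa9b and hoxc10a.

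The intervals give the range of changes compatible with these libraries in a given fit. In edgeR without the block, the 95% interval of the log2 fold change lay within 1 unit of 0, a 2-fold change either way, for 20 of the 32 genes (62.5%, against 47.9% of all rows). In edgeR with the replicate block it did so for 30 of the 32 (93.8%, against 76.5% of all rows), the exceptions being hoxd10a and hoxd11a. In DESeq2 with the block the intervals of hoxd10a, hoxd11a, hoxa5a, hoxc4a, hoxc5a, hoxc6a, hoxc8a, hoxd12a and hoxd13a passed 1 unit. Their bounds reached -1.51 for hoxd10a and 1.37 for hoxc4a. In edgeR with the block the interval lay within a 1.5-fold change for 13 of the 32 (40.6%, against 30.4%). For hoxa13b it ran from -0.16 to 0.57, for hoxa13a from -0.50 to 0.28, for hoxc13a from -0.30 to 0.40 and for hoxc13b from -0.37 to 0.36. Changes within these intervals were not excluded by that fit, and the bounds are not a smallest detectable change.

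**Figure D4:**
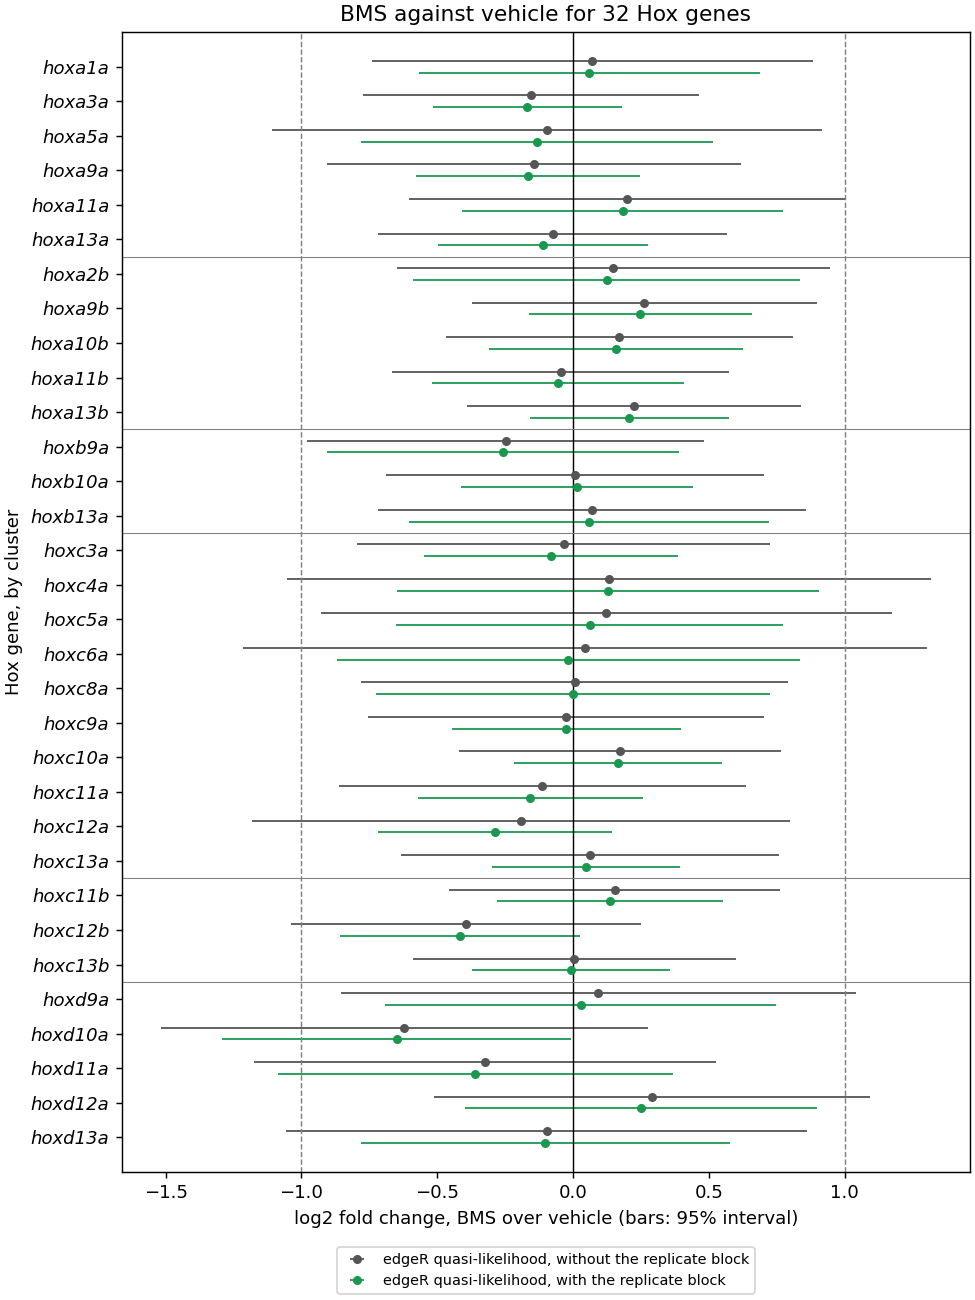
Log2 fold change of BMS over vehicle (x axis) with its 95% interval for the 32 tested Hox genes (y axis, by cluster), in the edgeR quasi-likelihood fits without (grey) and with (green) the replicate block. Dashed lines mark 1 log2 unit either side of 0, and hoxd10a has the lowest value in both fits, at -0.62 without and -0.65 with the block.

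The median log2 fold change was 0.00 over the 23 genes of groups 9 to 13 and 0.04 over the 9 tested genes of groups 1 to 8. By cluster the medians were -0.09 for hoxaa (6 genes), 0.17 for hoxab (5), 0.01 for hoxba (3), 0.02 for hoxca (10), 0.00 for hoxcb (3) and -0.10 for hoxda (5). The share of Hox reads from hoxab was 36.7%, 31.4% and 34.2% in BMS replicates 2, 3 and 4, against 31.8%, 29.1% and 30.6% in vehicle replicates 2, 3 and 4. It was higher in BMS in 3 of 3 pairs, and the groups overlapped. The share from hoxaa was 25.0%, 24.1% and 22.3% in BMS replicates 2, 3 and 4, against 27.0%, 26.4% and 24.9% in vehicle replicates 2, 3 and 4. The BMS share was the smaller in each pair, again with overlap. These shares of a whole depend on each other and were not tested. In vehicle most hoxab reads were those of hoxa13b (22.6% of Hox reads) and most hoxaa reads those of hoxa13a (16.9%). The 2 cluster shares and the hoxa13 shares below therefore rest largely on the same reads and are not separate results.

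The a and b copies of 6 duplicated Hox genes could be set against each other within a library, since both copies had at least 100 reads together in every library. The hoxa13b share of hoxa13 reads was 58.7%, 63.6% and 65.2% in BMS replicates 2, 3 and 4, against 55.7%, 56.6% and 59.5% in vehicle replicates 2, 3 and 4. The widest 95% Wilson interval among these, that of BMS replicate 2, ran from 57.2% to 60.2%. The share was higher in BMS in 3 of 3 pairs, and the lowest BMS library lay below the highest vehicle library. The hoxa9b share of hoxa9 reads was also higher in 3 of 3 pairs, at 78.4%, 60.0% and 61.7% in BMS replicates 2, 3 and 4, against 65.8%, 58.0% and 57.8% in vehicle replicates 2, 3 and 4. For hoxa11 and for hoxc11, hoxc12 and hoxc13 the share of the b copy was higher in BMS in 1, 2, 1 and 1 of 3 pairs. A share of reads also depends on the lengths of the copies and on reads that fit both, and these differences were not tested.

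**Figure D5:**
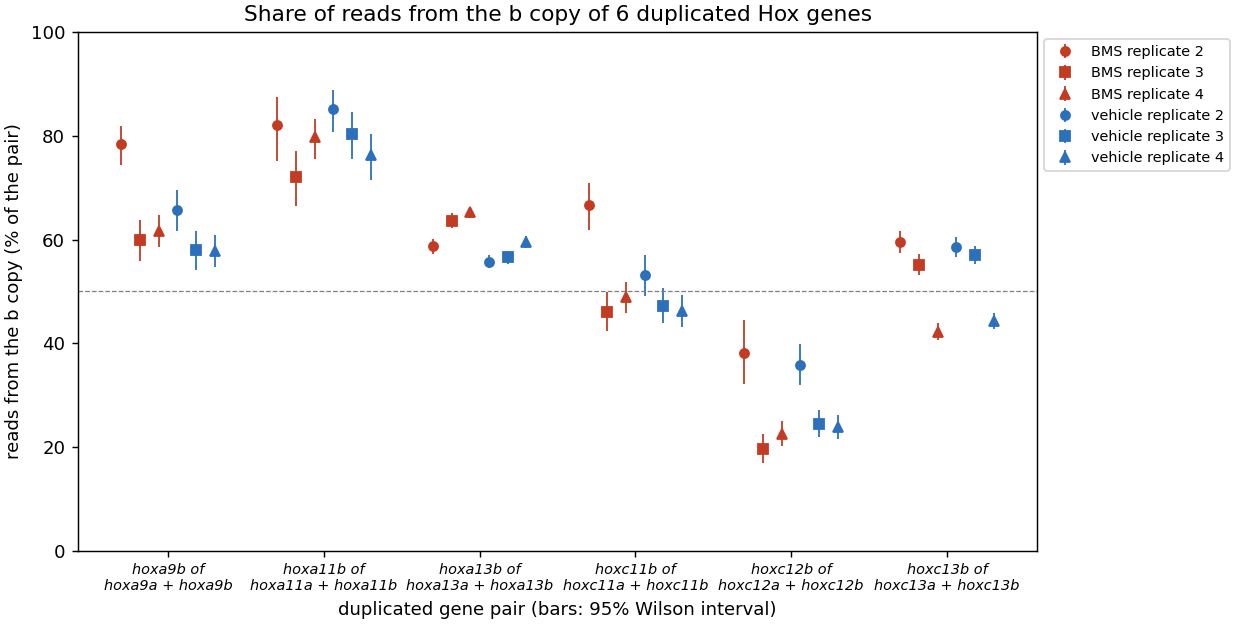
Share of reads from the b copy of 6 duplicated Hox genes (y axis, percent of the reads of both copies) in each BMS library (red) and vehicle library (blue), with 95% Wilson intervals that cover counting error only. For hoxa13 the BMS libraries lie at 58.7% to 65.2% and the vehicle libraries at 55.7% to 59.5%, and for hoxc13 replicate 4 is the lowest library in both groups.

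Some Hox levels differed between replicate numbers in the same way in both groups. For 13 of the 32 genes replicate 2 was the lowest library in both groups (40.6%, against 24.2% of all rows tested). These were 5 of the 6 tested hoxaa genes (hoxa1a, hoxa3a, hoxa5a, hoxa9a and hoxa11a) and 6 of the 10 tested hoxca genes (hoxc3a, hoxc4a, hoxc5a, hoxc6a, hoxc11a and hoxc12a). They also included 1 of the 3 tested hoxcb genes (hoxc12b) and 1 of the 5 tested hoxda genes (hoxd11a), but 0 of the 5 hoxab and 0 of the 3 tested hoxba genes. Some had few counts in replicate 2, such as hoxc4a with 7 in BMS and 8 in vehicle. Replicate 4 was the lowest vehicle library for 4 of the 32 genes (12.5%, against 38.4% of all rows) and the lowest BMS library for 2 (6.25%, against 30.9%). Within pairs, the tested Hox genes ran from -0.79 (hoxd11a) to 0.83 (hoxa2b) log2 units in pair 2, from -0.93 (hoxd10a) to 0.59 (hoxc6a) in pair 3 and from -0.60 (hoxd10a) to 0.48 (hoxb9a) in pair 4. The median over the 32 was -0.08, -0.11 and 0.02 log2 units in pairs 2, 3 and 4, against 0.00, -0.01 and -0.05 over all rows.

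Marker levels differed between the same libraries. The 12 superficial and intermediate epidermis markers summed to 17306 to 27754 CPM in BMS, with the highest value in replicate 2, and to 15070 to 19879 CPM in vehicle. Their mean log2 CPM was 8.07, 7.98 and 8.26 in BMS replicates 2, 3 and 4, against 7.69, 7.69 and 7.97 in vehicle replicates 2, 3 and 4. By that measure replicate 4 was the highest in both groups, and the groups did not overlap, by a narrow margin. All 11 tested ones had positive log2 fold changes with none passing, where 48.5% of all rows were negative. The 14 fin mesenchyme markers summed to 4169 to 10614 CPM in BMS and 5792 to 10377 CPM in vehicle, with replicate 4 the lowest in both groups. The 9 osteoblast markers found summed to 7576 to 27011 CPM in BMS and 11026 to 29502 CPM in vehicle, also lowest in replicate 4 of both groups. The 8 tested osteoblast markers had negative log2 fold changes, where 48.5% of all rows did. The 12 basal epidermis markers summed to 14142 to 28900 CPM in BMS and 16746 to 24792 CPM in vehicle. Immune markers summed to 742 to 1077 CPM in BMS and 749 to 1038 CPM in vehicle, endothelial markers to 55.6 to 79.1 CPM in BMS and 52.3 to 78.2 CPM in vehicle, muscle markers to 24.8 to 35.9 CPM in BMS and 23.6 to 41.2 CPM in vehicle, and nerve markers, of which plp1b was at 0, to 2.02 to 2.66 CPM in BMS and 2.14 to 2.73 CPM in vehicle. The part of these marker differences in the Hox levels was not tested. Most of the fin mesenchyme sum came from fn1b, at 2813 CPM in BMS replicate 4 and 4073 CPM in vehicle replicate 4. Members of that list differed in their order. Like fn1b, the genes prrx1a, prrx1b, aldh1a2 and pdgfra were lowest in replicate 4 of both groups. In contrast, msx1b was highest in replicate 4 of both groups, at 175 CPM in BMS and 179 CPM in vehicle. So was tph1b, at 9.66 CPM in BMS and 15.6 CPM in vehicle. Replicate 4 was the highest library of msx2b in vehicle only and of msx3 in BMS only. The genes twist1a, twist1b and twist2 were lowest in BMS replicate 3 and in vehicle replicate 4. The mean log2 CPM of the list was also lowest in replicate 4 of both groups. It was 7.04, 6.74 and 6.53 in BMS replicates 2, 3 and 4, against 6.94, 6.91 and 6.70 in vehicle replicates 2, 3 and 4.

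Hox proteins bind DNA together with homeodomain cofactors of the Meis, Pbx and Pknox families. The list held 15 genes, all of these families except tgif1. Of the 15, 12 were tested and 0 passed in either direction by edgeR or by DESeq2 with the block, which gave no adjusted p for meis2a and pbx3b. Of the 12, 10 had negative log2 fold changes, against 48.5% of all rows (median -0.22, against 0.01 over all rows). The member with the most reads in vehicle replicate 2 was tgif1, a repressor of the same superclass, at 86.3, 71.5 and 35.2 CPM in BMS replicates 2, 3 and 4, against 93.8, 84.3 and 47.9 CPM in vehicle replicates 2, 3 and 4. The BMS value was the smaller in each of the 3 pairs, and the groups overlapped. The gene pknox2 was at 7.80, 4.04 and 4.12 CPM in BMS replicates 2, 3 and 4, against 10.98, 6.67 and 5.40 CPM in vehicle replicates 2, 3 and 4. It was the only cofactor gene at an unadjusted p under 0.05 in edgeR's fit with the block (log2 fold change -0.53, adjusted p = 0.687), beside 7.05% of all rows, and in DESeq2 with the block 0 of the 12 were.

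Polycomb and Trithorax complexes keep Hox genes silent or active, and Cdx factors activate them in the tail bud. Of 34 genes of this kind listed, 32 were found, 30 were tested and 0 passed. Negative log2 fold changes numbered 20 of the 30 without the block (median -0.15), where 48.5% of all rows were negative. With the block they numbered 23 (median -0.17, against -0.02 over all rows), where 52.2% of all rows were negative. The Polycomb component gene phc1 was at 10.2, 11.9 and 6.02 CPM in BMS replicates 2, 3 and 4, against 15.1, 15.7 and 9.21 CPM in vehicle replicates 2, 3 and 4. The BMS value was the smaller in each of the 3 pairs, and the groups overlapped (edgeR log2 fold change with the block -0.52, adjusted p = 0.655). For suz12a, suz12b and men1 every BMS library was below every vehicle library, as for 1.76% of all rows. No tested gene of the list had every BMS library above every vehicle library, as 2.16% of all rows did. Without the block 0 of the 30 reached an unadjusted p under 0.05, and with it 3 did (phc1, suz12a and men1), beside 7.05% of all rows. In DESeq2 with the block 2 did, beside 5.26% of all rows, with suz12a and men1 not among them. The Cdx genes cdx1b and cdx4 were untested, at 0 to 0.202 CPM in BMS and 0 to 0.0488 CPM in vehicle.

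Genes that flank Hox clusters or lie near them in vertebrates were measured beside them. Of 18 listed, 17 were found, 15 were tested and 0 passed. Of the 15, 5 had negative log2 fold changes, against 48.5% of all rows (median 0.03, against 0.01). In edgeR 0 reached an unadjusted p under 0.05 without the block, against 1.07% of all rows, and 0 with it, against 7.05%. The homeobox gene evx1, which zebrafish need for the joints of fin rays, was at 3.71, 2.90 and 3.03 CPM in BMS replicates 2, 3 and 4, against 3.76, 3.92 and 2.82 CPM in vehicle replicates 2, 3 and 4. Its relative evx2, which neighbours hoxd13a, was untested, at 0 to 0.0808 CPM in BMS and 0 to 0.0794 CPM in vehicle. Of 16 other fin and limb patterning genes, 10 were tested and 0 passed. Of the 10, 7 had negative log2 fold changes, against 48.5% of all rows (median -0.28, against 0.01). Likewise 0 of them reached an unadjusted p under 0.05 in edgeR with or without the block. The hindlimb and pelvic fin genes tbx4 and pitx1 and the forelimb and pectoral fin gene tbx5a were untested, at 0 to 0.202 CPM in BMS and 0 to 0.342 CPM in vehicle. The blastema homeobox gene msx2b was at 176, 147 and 170 CPM in BMS replicates 2, 3 and 4, against 141, 196 and 304 CPM in vehicle replicates 2, 3 and 4, so it was higher in BMS in pair 2 and lower in pairs 3 and 4.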

How the data were processed

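RNA was measured in 6 libraries, each from 4 pooled fin regenerates. The authors deposited raw counts in a table in which some rows share a gene name. Per the submitters' processing notes edgeR 4.3.2, HTSeq 0.6.1, TopHat2 2.1.1 and Bowtie2 2.33 were the tools and GRCz11 the build; what each tool did, the annotation and the strand setting are not stated. Groups and replicate numbers came from the sample titles.

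Counts were tested with edgeR 4.0.16 (quasi-likelihood F test, TMM, filterByExpr by group, robust, two-sided, Benjamini-Hochberg over 18541 rows, threshold 0.05) in R 4.3.3. DESeq2 1.42.0, limma-voom (limma 3.58.1), a replicate block, other scalings, no filter, summed rows and the omission of libraries were alternatives, and the fits were tested on simulated data. An SE was taken from the fold change and F. Pair differences are log2(CPM + 0.25). The deviations of same-number libraries from their group means correlated at 0.61, 0.59 and 0.65 across genes, above 0.1, so the numbers were taken as pairs, from the data and not from the labels.

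Genes given in full were those tested in groups 11 to 13, any at an unadjusted p under 0.05, the highest vehicle mean per cluster and the 3 lowest and 3 highest fold changes. Genes named beyond these (hoxa3a, hoxc3a and the examples from the lists) were picked with their values known. The Hox genes and lists were chosen with earlier results of these data known. Levels were to be compared per transcript length, but no lengths were used here, so shares of reads are given. Symbols were matched in the RefSeq table of GRCz12tu (48 of 48), used for names and overlaps only. The authors' normalized table was not used.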

Additional observations from a re-analysis of the deposited data

How the results depend on the processing

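The count of rows called between BMS and vehicle was 0 without the block, 1 with DESeq2 and 72 with DESeq2 and the replicate block, and 0 with edgeR and the block. With 1 library left out it was 0; without both libraries of replicate 2, 3 or 4, with the replicate block, it was 9, 392 and 12. The cause was not tested. None of the called rows was a Hox gene in DESeq2 with or without the block. The Hox genes at an unadjusted p under 0.05 numbered 0, or 1 with the replicate block (hoxd10a), and 0 to 1 with libraries left out. The Hox genes with a negative log2 fold change numbered 14, against 23 with total-count scaling and 9 to 19 with libraries left out. Their median was 0.01, against -0.0882 with total-count scaling and -0.10 to 0.18 with libraries left out. Total-count scaling moved all rows by about as much (-0.10). With libraries left out the median of all rows was -0.05 to 0.04, a narrower range than that of the Hox genes. The share of vehicle Hox reads from groups 9 to 13 was 90.1%, and 89.4% to 90.6% with 1 vehicle library left out. Of 17 named and tested Hox genes, 7 kept the sign of their log2 fold change in all 17 alternatives, and none of the 289 alternative values was called or moved by over 1 SE. Of the named genes, hoxb13a, hoxd11a and hoxd13a had no adjusted p in DESeq2 with the block and could not be called there. The 7 were hoxa9b, hoxa13b, hoxc11b and hoxd12a (positive) and hoxc12b, hoxd10a and hoxd11a (negative). All of them but hoxc11b are the 3 lowest and 3 highest fold changes of the main fit, which was a rule for naming genes. Genes picked as furthest from 0 tend to keep their sign in refits of the same libraries, so the kept signs are no separate support. The block changed no call of a Hox gene. The share per transcript length was not run. The 3 widest intervals without the block were those of hoxc6a, hoxc4a and hoxc5a, all at a low level.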
